A study of Mus musculus with 12 samples.

Results

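The AP-1 transcription factor family was described in the RNA of mouse testes injected with lentivirus, through the 8 genes of the deposited table whose symbols were Fos, Fosb, Fosl1, Fosl2, Jun, Junb, Jund and Atf3, of 20718 genes in all. All 8 passed the filter on low counts, which kept 16296 genes. The family was selected on measured values of these same libraries, because Fos and other rapidly induced genes were already known to differ between the groups, so the differences of the members are given below as descriptions. Members that pass tests run over all genes are counted below, but nothing about the family is read from those counts. There were 4 groups with 3 libraries each from whole testis. The mice were IRC per the labels (ICR in the study's methods), were injected in the testis at 4 weeks of age, raised for 5 weeks until 9 weeks of age, and then mated for 4 days and kept for 4 more days. F0_5251KD received lentivirus in the LV3 backbone with a mixture of 3 shRNAs that target the long non-coding RNA lncRNA5251, and F0_3NC received an LV3 virus with a negative control shRNA. F0_5251OV received LV5 virus carrying full-length lncRNA5251, and F0_5NC received the empty LV5 virus. All 4 groups therefore carried virus, and no group of uninjected testes was analysed here. No row of the table was named lncRNA5251, so neither its knockdown nor its overexpression was checked in these libraries.

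AP-1 is not a single protein but a set of dimers. Proteins of the Fos family (Fos, Fosb, Fosl1, Fosl2) do not form stable dimers with themselves and bind DNA with a Jun partner, whereas Jun proteins (Jun, Junb, Jund) can also pair among themselves, and Atf3 pairs with Jun proteins as well as with itself. Fos–Jun dimers prefer the TPA response element (TRE), and dimers with ATF proteins prefer the cyclic AMP response element (CRE). Fos, Fosb, Junb and Atf3 belong to the immediate early genes, which are transcribed within minutes of a growth factor, stress or calcium signal without new protein synthesis and whose mRNAs decay quickly. Jund is expressed more constantly, and male mice without it are sterile with defects of spermatogenesis.

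The promoter stretches of Fos, Jun, Junb and Atf3 are printed because these are the members whose level was highest in all libraries of F0_5251KD and whose start site was the same in the promoter and gene tables. Each is the 120 bases before the start of the gene, from RefSeq on GRCm38.p6 and read 5′ to 3′ on the gene's own strand. Capitals mark matches of 2 motifs, the CRE core TGACG on either strand and the TATA box TATAAA, and the Jun stretch holds neither.
Fos, chr12:85473770-85473889, plus strand: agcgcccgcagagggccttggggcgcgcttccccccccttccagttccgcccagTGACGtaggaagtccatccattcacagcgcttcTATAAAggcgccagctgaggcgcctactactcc
Jun, chr4:95052223-95052342, minus strand: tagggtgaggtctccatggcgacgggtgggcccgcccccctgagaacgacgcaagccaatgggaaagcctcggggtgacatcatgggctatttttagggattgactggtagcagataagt
Junb, chr8:84978749-84978868, minus strand: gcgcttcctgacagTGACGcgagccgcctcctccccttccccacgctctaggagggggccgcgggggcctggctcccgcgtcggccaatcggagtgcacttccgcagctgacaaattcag
Atf3, chr1:191183334-191183453, minus strand: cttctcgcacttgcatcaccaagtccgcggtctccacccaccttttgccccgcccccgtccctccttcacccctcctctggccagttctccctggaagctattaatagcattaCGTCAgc

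For 7 of the 8 members a window of 250 bases before to 50 bases after the start was in the promoter table, and Fosl1 had no entry. The CRE core was found on either strand in the windows of Fos, Fosb, Junb and Atf3, and in 20.8% of all 32851 windows. In Fos it began 66 bases before the start, with a further match 129 bases before it, and the TATA box began 33 bases before the start. TATAAA was found in 13.6% of all windows, and among the members in Fos and, at the start itself, in Junb. Neither the full CRE TGACGTCA, which contains the core on both strands and was in 1.79% of windows, nor the TRE (TGACTCA or TGAGTCA, in 5.2% of windows) nor the CArG box (in 1.63%) was matched in any of the 7 windows. A match is a description of letters, and the absence of a match says only that these letters are not in the window.

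The level of Fos, the founding member of the family, separated the 4 groups completely. Its RPKM (reads scaled by transcript length and by the mapped reads of the library, a unit taken from the study's methods since the table names none) was 4.72, 6.43 and 6.43 in the 3 libraries of F0_5251KD and 1.89, 2.48 and 1.45 in those of F0_3NC. It was 0.69, 0.46 and 0.39 in F0_5NC and 0.16, 0.23 and 0.32 in F0_5251OV. No library of a group reached the range of the next group in this order, and the ratio of group means was 3.02 between F0_5251KD and F0_3NC, 3.78 between F0_3NC and F0_5NC and 2.17 between F0_5NC and F0_5251OV. The lowest levels rest on few reads, with 5 to 10 estimated counts per library in F0_5251OV and 12 to 21 in F0_5NC, against 143 to 198 in F0_5251KD.

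Fosb, a close relative of Fos that is induced by the same signals, was at 2.71, 4.28 and 2.84 RPKM in F0_5251KD and at 1.65, 1.86 and 1.40 in F0_3NC. In F0_5NC it was at 0.74, 0.68 and 0.58 RPKM and in F0_5251OV at 0.61, 0.83 and 1.25. The ranges of F0_5251KD, F0_3NC and the LV5 groups did not meet, while F0_5NC and F0_5251OV overlapped. Fosl2, a Fos family member that lacks the strong activation domain of Fos, had 3.29, 3.15 and 2.96 RPKM in F0_5251KD and 1.89, 3.27 and 2.16 in F0_3NC. These groups overlapped through replicate 2 of F0_3NC. Both stood above F0_5NC, with 1.09, 0.79 and 0.67 RPKM, and F0_5251OV, with 0.77, 0.63 and 0.65, which also overlapped. Fosl1 did not follow this order. Its RPKM was 1.84, 0.77 and 1.57 in F0_3NC and 1.22, 0.65 and 0.71 in F0_5251KD, with 0.80 to 1.04 in F0_5NC and 0.54 to 1.13 in F0_5251OV, and each group overlapped its neighbours. The estimated counts of Fosl1 were not whole in any of the 12 libraries and it overlaps Ccdc85b on the opposite strand, so its reads may be shared with other genes.

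Junb, which is induced with Fos and can restrain the activity of Jun, had the largest levels among the members that followed the order of Fos. It was at 17.26, 13.07 and 18.16 RPKM in F0_5251KD and at 8.92, 6.20 and 8.96 in F0_3NC. In F0_5NC it was at 3.85, 2.04 and 2.13 RPKM and in F0_5251OV at 1.37, 1.81 and 1.82. The 4 groups did not overlap. The end of Junb overlaps Prdx2, which lay between 30.1 and 53.62 RPKM in all libraries and was highest in F0_5NC replicate 1, where Junb was also highest within its group. Jun itself, the partner common to most AP-1 dimers, varied less. It was at 4.66, 4.64 and 7.39 RPKM in F0_5251KD, at 3.98, 3.98 and 4.01 in F0_3NC, at 3.88, 3.30 and 2.87 in F0_5NC, and at 2.37, 2.47 and 2.78 in F0_5251OV. The RPKM ranges of neighbouring groups did not meet, but F0_5NC and F0_5251OV were close, and as CPM (counts relative to the TMM-adjusted library size) they overlapped.

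Jund was the most abundant member by RPKM in all 12 libraries and did not follow the order of Fos. It was at 25.31, 17.91 and 19.25 RPKM in F0_5251KD, at 19.57, 11.72 and 22.70 in F0_3NC, at 20.78, 17.89 and 18.87 in F0_5NC and at 11.93, 18.93 and 16.77 in F0_5251OV. All neighbouring groups overlapped, and the lowest values were in F0_3NC replicate 2 and F0_5251OV replicate 1. Those are also the libraries in which transcripts rich in G and C had lower counts, with a slope of -0.30 and -0.236 log2 units per 10 percentage points of GC content, whereas the slope of the other 10 libraries lay between 0.002 and 0.101. Jund has the most GC-rich transcript of the family (67.1%), ahead of Junb (62.6%), and stood 0.63 and 0.60 log2 units below its mean in those libraries. Junb was also lowest within its group in those libraries, at 6.20 and 1.37 RPKM. Differences of Jund with GC-corrected counts are given in the last section. The part of the GC trend in the Jund and Junb values was not tested. An antisense gene overlaps Jund, and another overlaps Jun. No step that keeps the strand is named in the methods, so such reads cannot be told apart.

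**Figure D1:**
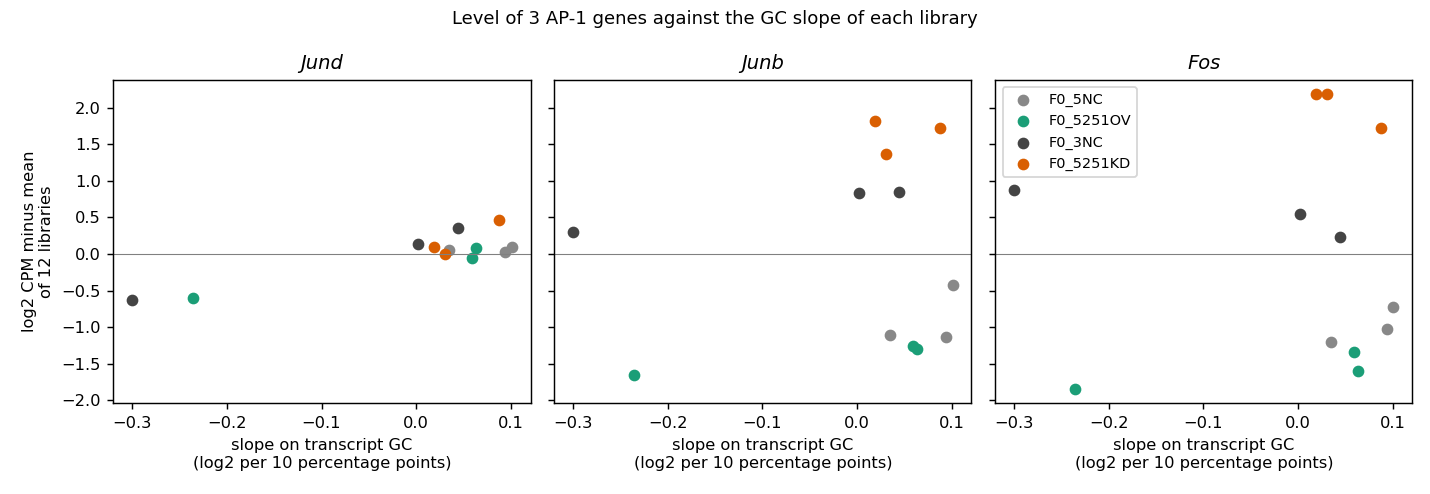
Log2 CPM of Jund, Junb and Fos minus the mean of the 12 libraries (y axis) against the slope of each library on transcript GC content (x axis, log2 units per 10 percentage points), colored by group. F0_3NC replicate 2 (-0.30) and F0_5251OV replicate 1 (-0.236) stand to the left with the lowest Jund values, whereas Fos is ordered by group.

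Atf3, a stress-induced partner of the Jun proteins, was at 1.44, 2.16 and 2.10 RPKM in F0_5251KD and at 0.97, 1.20 and 1.05 in F0_3NC. It was at 0.35, 0.17 and 0.17 in F0_5NC and at 0.14, 0.07 and 0.47 in F0_5251OV. F0_5251KD lay above F0_3NC and F0_3NC above both LV5 groups, which overlapped and rested on 2 to 14 estimated counts per library.

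**Figure D2:**
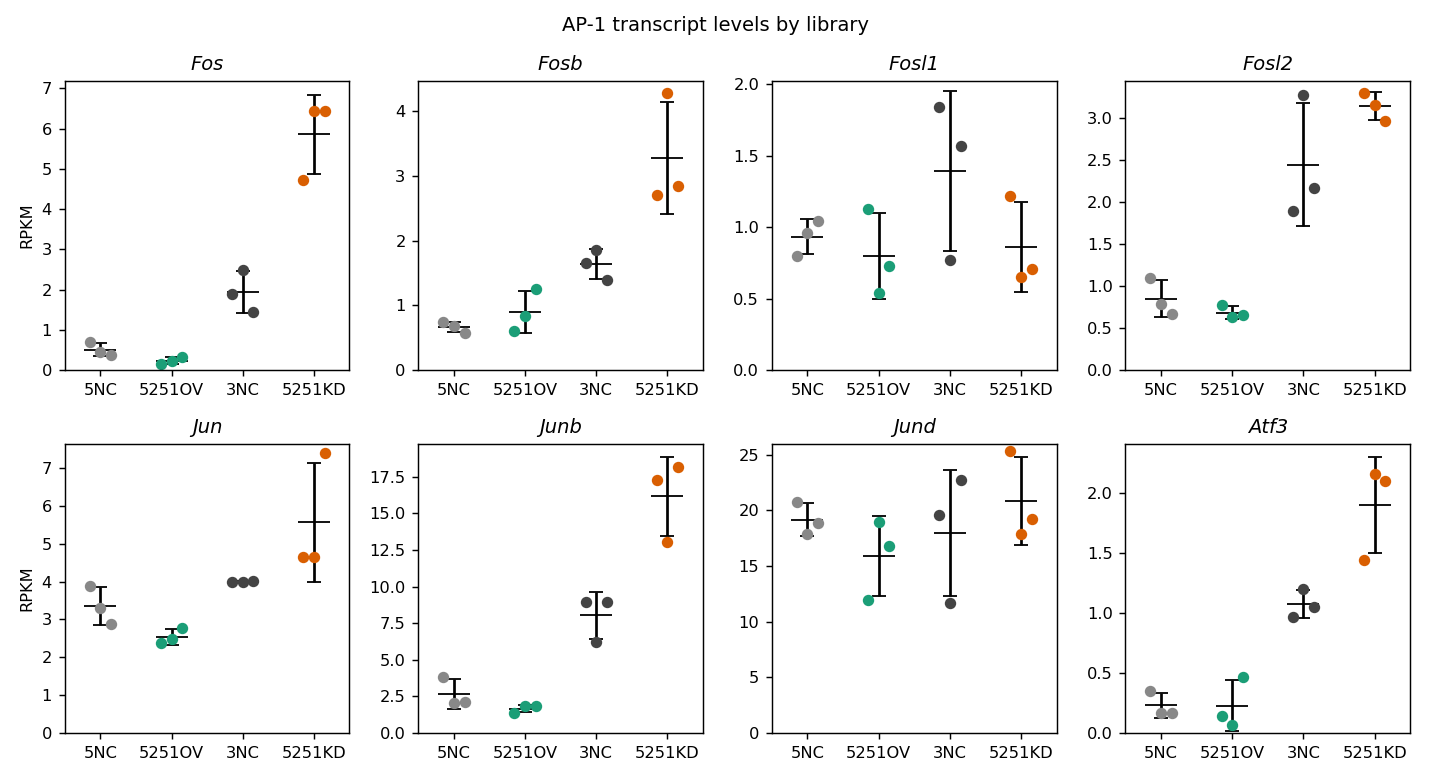
RPKM of the 8 AP-1 members (y axes, each from 0) in F0_5NC, F0_5251OV, F0_3NC and F0_5251KD (x axes, without the prefix F0_). Points are the 3 libraries, and the bar and whiskers are their mean and SD; for Fos the F0_5251KD libraries sit between 4.72 and 6.43 and the F0_5251OV libraries between 0.16 and 0.32, while Jund overlaps in all groups.

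Summed over the 8 genes, the AP-1 transcript level was 52.29 to 60.61 RPKM in F0_5251KD, 31.48 to 43.3 in F0_3NC, 26.29 to 32.18 in F0_5NC and 18.48 to 25.51 in F0_5251OV. F0_3NC and F0_5NC overlapped in this sum and the other neighbours did not. The make-up of the sum also differed. Jund supplied 64.6% to 70.6% of it in F0_5NC and 64.6% to 74.2% in F0_5251OV, against 37.2% to 52.4% in F0_3NC and 32.2% to 41.8% in F0_5251KD. Junb supplied 25% to 30.3% in F0_5251KD, 19.7% to 21.9% in F0_3NC, 7.76% to 12% in F0_5NC and 7.1% to 7.41% in F0_5251OV. The 4 Fos family genes together supplied 19.7% to 27.7% in F0_5251KD and 15.2% to 26.6% in F0_3NC, which overlapped, and 10% to 11% in F0_5NC and 8.74% to 14.4% in F0_5251OV. Summed Jun family RPKM exceeded summed Fos family RPKM in every library. These are shares of mRNA and not of protein dimers.

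**Figure D3:**
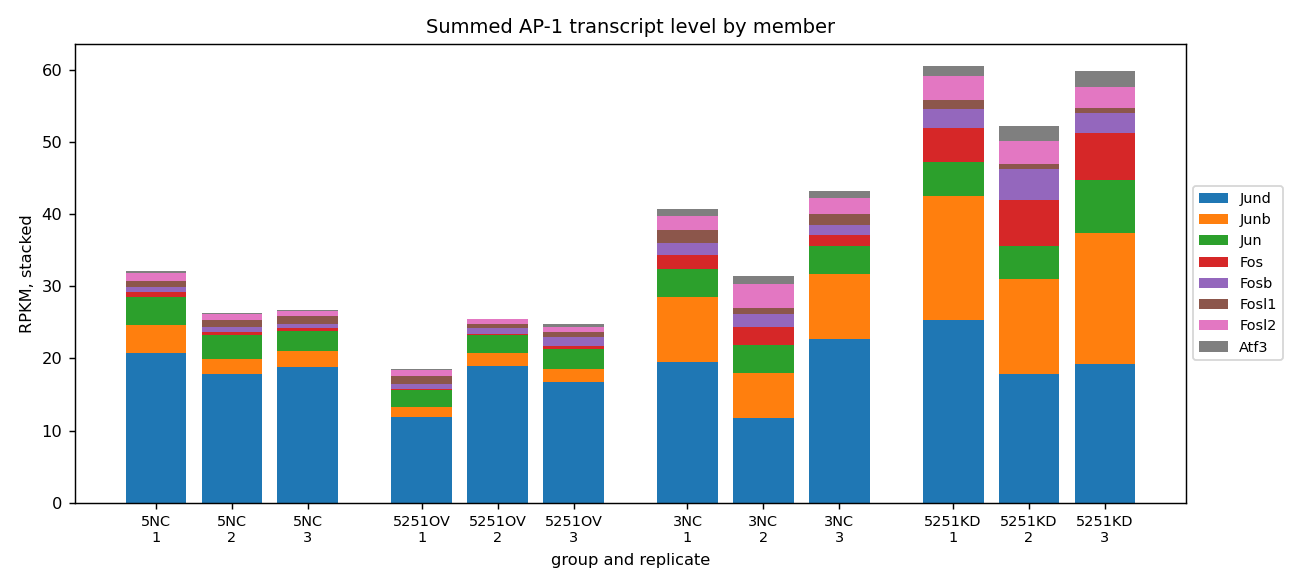
Stacked RPKM of the 8 AP-1 genes (y axis) in each of the 12 libraries (x axis, group and replicate). The blue Jund part is the major share in the bars of F0_5NC and F0_5251OV (64.6% or more) and at most 52.4% in those of F0_3NC and F0_5251KD, whose Junb and Fos parts are larger.

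The comparison of F0_5251KD with F0_3NC asks what changed in the testis when lncRNA5251 was targeted by shRNA. Of the members, 7 of 8 had a positive log2 fold change, with a median of 0.64 beside 0 over all genes tested. Fos was the member with the largest difference, 1.58 on the log2 scale (SE 0.227, 95% interval 1.10 to 2.07). Fosb (1.0, SE 0.236, 0.49 to 1.51) and Junb (1.0, SE 0.204, 0.56 to 1.43) came next. Atf3 differed by 0.81 (SE 0.364, 0.03 to 1.60) and Jun by 0.47 (SE 0.171, 0.10 to 0.84). The intervals of Fosl2 (0.35, -0.04 to 0.73), Jund (0.19, -0.28 to 0.66) and Fosl1 (-0.69, -1.47 to 0.10) included 0. By edgeR's quasi-likelihood test, adjusted by Benjamini-Hochberg over all genes, 1 member (Fos) was called higher, and 0.0245% of all genes, or 4, were. The CPM of 5 members, Fos, Fosb, Jun, Junb and Atf3, was higher in every F0_5251KD library than in any F0_3NC library, as was that of 5.52% of all genes. Since the family was selected on this contrast, nothing is read from these counts. The call of Fos was lost when any library but F0_3NC replicate 2 was left out (replicates 1 and 3 of F0_3NC and replicates 1, 2 and 3 of F0_5251KD, each in turn), although its difference lay between 1.42 and 1.79 over the 6 fits. The difference of Junb lay between 0.83 and 1.12 when 1 library was left out. Without the 2 libraries of falling GC slope the difference of Fos was 1.80 and that of Jund -0.04, and no member was called. Among marker lists of other cells, the sums of the 4 red cell genes (115.1 to 204.6 RPKM against 90.47 to 105) and the 5 peritubular smooth muscle genes (38.04 to 41.3 against 31.58 to 37.92) were higher in F0_5251KD without overlap, that of 3 epididymis genes was lower (1.18 to 2.99 against 3.44 to 7.47), and no gene of these lists was called by edgeR. Of the 3 red cell genes tested, Hba-a1 differed by 0.74 (SE 0.254), Hbb-bs by 0.14 (SE 0.552) and Hbb-bt by -0.01 (SE 0.628). The adipocyte sums of 4 genes overlapped (16.63 to 33.26 against 13.53 to 18.23), but among them Plin1, a lipid droplet gene, differed by 1.40 (SE 0.249, adjusted p 0.124 by edgeR), beside Adipoq at -0.02 and Fabp4 at 1.16 (SE 0.693). The part of these markers in the differences of Fos and Junb was not tested.

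The comparison of F0_5251OV with F0_5NC asks the same of overexpression. The members with the largest differences were lower: Fos by -1.06 on the log2 scale (SE 0.365, 95% interval -1.84 to -0.27) and Junb by -0.62 (SE 0.256, -1.18 to -0.07). The intervals of the other 6 members included 0, with Jun at -0.35 (-0.74 to 0.04), Fosl2 at -0.26 (-0.72 to 0.20), Jund at -0.22 (-0.69 to 0.25), Fosl1 at -0.21 (-1.03 to 0.61), Atf3 at 0.03 (-1.20 to 1.25) and Fosb at 0.45 (-0.15 to 1.04). The median of the members was -0.24, and 2 of 8 were positive. edgeR called 0 members, 0% of all genes higher and none lower, and DESeq2 also called 0 members. At an unadjusted p under 0.05, 2 members were lower, as were 4.8% of all genes, and the CPM of the same 2 genes, Fos and Junb, did not overlap, as for 6.57% of all genes in that direction. Since the family was selected with these values known, nothing is read from these counts either. Without F0_5251OV replicate 1 and F0_3NC replicate 2, Fos differed by -0.85 and Junb by -0.50. Sums of the 5 peritubular smooth muscle genes (23.52 to 28.87 RPKM against 32.59 to 41.48), the 7 Sertoli cell genes (410.1 to 510.3 against 528 to 844.1) and the 6 endothelial genes (10.64 to 11.77 against 12 to 18.37) were also lower in F0_5251OV without overlap, though no gene of them was called by edgeR. Of these, 4 peritubular, 4 Sertoli and 2 endothelial genes were lower at an unadjusted edgeR p under 0.05, beside 4.8% of all genes. The sums of the 4 red cell genes overlapped (49.34 to 63.76 against 60.55 to 117). Of the 3 tested, Hbb-bs and Hbb-bt were each at -1.92 (SE 0.669 and 0.804) and Hba-a1 at -0.31 (SE 0.261). Plin1 was at -1.06 (SE 0.239, adjusted p 0.397 by edgeR), beside Adipoq at 0.22 and Fabp4 at -1.55 (SE 0.725), while the adipocyte sums overlapped (14.06 to 16.35 against 14.06 to 30.41). Their part in the differences of Fos and Junb was not tested, and in RNA of whole testis fewer cells of a type cannot be told apart from less RNA per cell.

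The comparison of the controls, F0_3NC with F0_5NC, shows what differed between testes that received neither shRNA against lncRNA5251 nor extra lncRNA5251. Each control is also the reference of a comparison above, so these differences are not independent of those. The members had a median of 1.43 here, beside 0 over all genes, and 7 of 8 were positive. Atf3 differed by 2.23 (SE 0.462, 95% interval 1.23 to 3.22), Fos by 1.94 (SE 0.276, 1.35 to 2.54), Junb by 1.63 (SE 0.226, 1.14 to 2.12), Fosl2 by 1.56 (SE 0.196, 1.14 to 1.98) and Fosb by 1.31 (SE 0.264, 0.74 to 1.88). The intervals of Fosl1 (0.59, -0.18 to 1.37), Jun (0.29, -0.09 to 0.67) and Jund (-0.05, -0.52 to 0.42) included 0. edgeR called 3 members higher (Fos, Fosl2 and Junb), beside 0.276% of all genes, and 6 members did not overlap in CPM, beside 9.59% of all genes. These 3 calls held when any library of these groups was left out, but each such fit reuses values already known when the family was selected. Nothing is therefore read from these counts. The backbone (LV3 or LV5), the control insert and any day of injection, dissection or library preparation that followed them cannot be told apart. The sum of 3 epididymis genes was higher in F0_5NC (12.17 to 77.3 RPKM) than in F0_3NC (3.44 to 7.47). The adipocyte sums of 4 genes overlapped (13.53 to 18.23 RPKM in F0_3NC against 14.06 to 30.41). Among them Plin1 was lower in F0_3NC (-1.46, SE 0.248, adjusted p 0.0219 by edgeR), beside Adipoq at 0.14 and Fabp4 at -1.06 (SE 0.696). The part of these markers in the result was not tested.

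**Figure D4:**
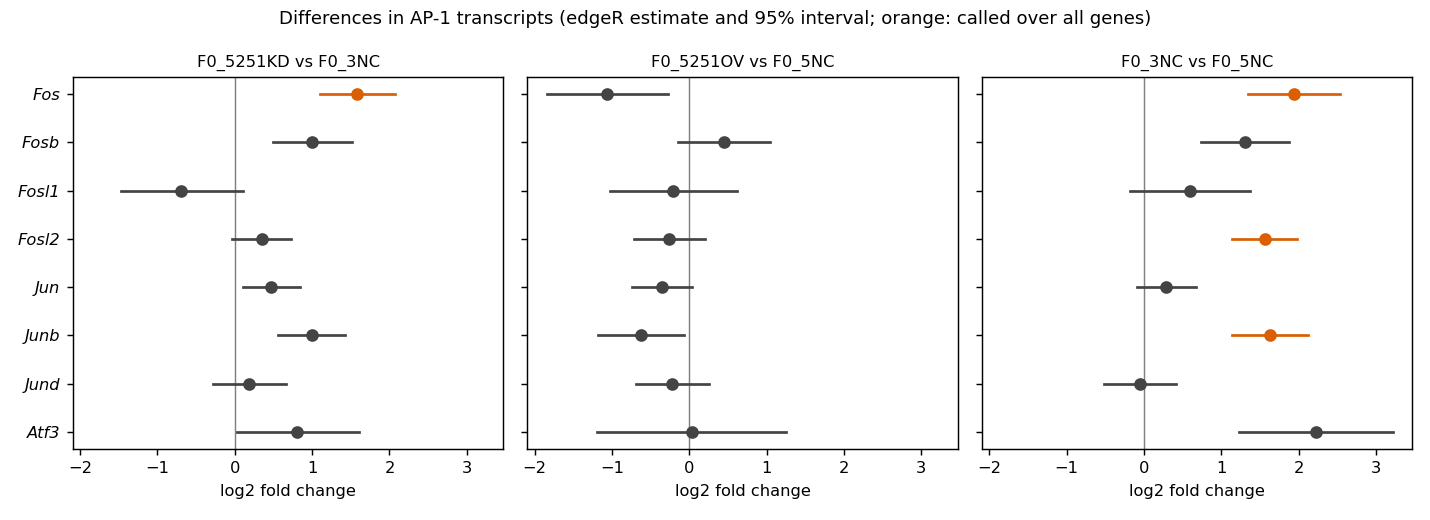
Log2 fold change (x axis) of each AP-1 gene (y axis) in the 3 comparisons, with edgeR's estimate as a point and its 95% interval as a line; orange marks genes called over all genes. Fos lies at 1.58, -1.06 and 1.94, and the Jund interval includes 0 in each panel.

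How the members varied together was described over the 12 libraries, which share 4 groups, so that a gene ordered like the groups resembles any other such gene. Pearson's r of log2 CPM between Fos and the other members was 0.97 for Junb, 0.96 for Atf3, 0.95 for Fosl2, 0.93 for Fosb, 0.91 for Jun, 0.28 for Jund and 0.05 for Fosl1. After the group means were removed, Fos kept 0.74 with Fosb, 0.68 with Atf3, 0.48 with Jun and 0.47 with Fosl2. It had 0.08 with Junb and -0.41 with Jund, and was opposite in sign to Fosl1 (-0.78). Junb had 0.68 with Jund, the other GC-rich member. Among genes outside the family with a mean of at least 1 CPM, those most like Fos were Zfp36 (0.986), which encodes an mRNA decay factor, Btg2 (0.981), an antiproliferative gene, Dusp1 (0.975), a phosphatase of MAP kinases, Egr2 (0.967) and Egr1 (0.961), zinc finger factors, Trib1 (0.954), a pseudokinase that brings substrates to the ubiquitin ligase Cop1, Ier2 (0.952) and Gm17019 (0.951). Btg2 and Zfp36 were also among the 3 genes most like Fosb, Junb and Atf3. Egr1 (0.977) and Ier3 (0.975) were among the 3 genes most like Fosl2, and Jun was most like Gm10354 (0.929), Rhob (0.919) and Klf6 (0.919). Vps51 (0.958) and Pdlim7 (0.948) were among the 3 genes most like Jund, and Fosl1 had weaker ones, led by Ubash3a (0.835). By deviations from group means the genes most like Fos were Gm21440 (0.921), Glt8d2 (0.908), Fbxo32 (0.897), Rad18 (0.897) and Plekha2 (0.875), none of which was among the 8 above.

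The genes around AP-1 were examined in 7 lists, which were drawn up with earlier results of these libraries known. At an unadjusted p under 0.05, 2.34% of all genes were higher and 2.4% lower in F0_5251KD than in F0_3NC, 3.97% higher and 4.8% lower in F0_5251OV than in F0_5NC, and 6.41% higher and 5.47% lower in F0_3NC than in F0_5NC. In the same order, edgeR called 0.0245%, 0% and 0.276% of all genes higher. The MAP kinase cascade list (Ras genes, MAP kinases with the kinases above them, and Rps6ka kinases), whose proteins relay signals to the Fos promoter, had no gene called in any comparison by edgeR or DESeq2. Of its 27 genes, 1 passed an unadjusted p under 0.05 in F0_5251KD vs F0_3NC, namely Mapk12 (0.80, SE 0.336, adjusted p 0.897 by edgeR), and 1 between the controls, with 0 in F0_5251OV vs F0_5NC. The list medians lay between -0.02 and 0.03. Of the 10 factors that bind the Fos promoter (the serum response factor and its partners, Creb and Stat proteins) none was called by edgeR or DESeq2, and 0, 2 and 1 passed unadjusted in the 3 comparisons in the order above. Stat3, which mediates cytokine signals, had the smallest p, with -0.40 in F0_5251OV vs F0_5NC (SE 0.119, adjusted p 0.522 by edgeR).

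Other immediate early genes had the most calls of the 7 lists. Genes of this kind were already known to differ when the family was selected, so nothing is read from these counts. Of 20 genes, 3 were called higher in F0_5251KD than in F0_3NC, beside 0.0245% of all genes. None was called in F0_5251OV vs F0_5NC, where edgeR called 0 of all genes. Between the controls 8 were called higher in F0_3NC than in F0_5NC, beside 0.276% of all genes. Btg2 was at 60 ± 10.9 CPM in F0_5251KD and 23.2 ± 1.02 in F0_3NC (SD, n = 3 each), a difference of 1.37 (SE 0.153, adjusted p 0.00856 by edgeR). Egr1 differed by 1.07 (SE 0.137, adjusted p 0.0202 by edgeR) and Zfp36 by 0.91 (SE 0.122, adjusted p 0.0223 by edgeR). The number called fell to 0 when replicate 1 or 3 of F0_3NC or replicate 3 of F0_5251KD was left out, to 1 without F0_5251KD replicate 1, and to 0 without the 2 libraries of falling GC slope. Between the controls the genes with the smallest p were Egr1 (3.49, SE 0.166, adjusted p 2e-07 by edgeR), Btg2 (2.38, SE 0.176), Myc (3.38, SE 0.275) and Zfp36 (1.47, SE 0.134), all higher in F0_3NC. Myc, a growth-promoting factor, had the opposite sign in F0_5251KD vs F0_3NC (-0.92, SE 0.222), where it did not pass (adjusted p 0.666 by edgeR). In F0_5251OV vs F0_5NC, 3 of the 20 genes were positive and 1, Klf6, passed an unadjusted p under 0.05 (-0.48, SE 0.207, adjusted p 0.552 by edgeR), while DESeq2 called 0. DESeq2 called 8 in F0_5251KD vs F0_3NC.

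Of 14 bZIP partners of AP-1 proteins (Atf, Batf, Maf and related genes), 11 were tested. Maff, a small Maf protein, was higher in F0_3NC than in F0_5NC (1.79, SE 0.249, adjusted p 0.00422 by edgeR), and no other call was made in the list. Unadjusted, 1 gene was higher in F0_5251KD and 2 were lower in F0_5251OV, and DESeq2 called 0 in those comparisons. Among 9 genes of AP-1 protein turnover, Trib1 was higher in F0_3NC than in F0_5NC (1.68, SE 0.162, adjusted p 0.00021 by edgeR) and was at 0.52 (SE 0.146, adjusted p 0.867) in F0_5251KD vs F0_3NC, with no other call in the list by edgeR or DESeq2. In F0_5251OV vs F0_5NC, 1 turnover gene was higher and 1 lower at an unadjusted p under 0.05.

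Textbook targets of AP-1 (metalloproteinases, plasminogen activators, chemokines and others) numbered 22, of which 17 were tested. In F0_3NC vs F0_5NC 3 were higher, among them Ccl2, a monocyte chemokine (3.17 ± 0.574 against 0.124 ± 0.12 CPM, 4.57, SE 0.479, adjusted p 0.000394 by edgeR) and Hmox1, the stress-induced heme oxygenase (1.02, SE 0.141, adjusted p 0.00422 by edgeR). The count was 2 without F0_3NC replicate 2, F0_5NC replicate 2 or F0_5NC replicate 3. None was called in F0_5251KD vs F0_3NC or in F0_5251OV vs F0_5NC by edgeR or DESeq2, with 1 higher and 3 lower, and 1 higher and 2 lower, at an unadjusted p under 0.05. Ccl2 and Hmox1 had negative values in F0_5251KD vs F0_3NC (-1.40, SE 0.343, adjusted p 0.696, and -0.41, SE 0.137, adjusted p 0.897 by edgeR), opposite in sign to Fos. The 8 heat shock genes, which respond to damaged protein, were called in no comparison by edgeR or DESeq2, with medians from -0.08 to 0.03 and 0, 2 and 2 genes past an unadjusted p under 0.05 in the order above, and Hspa1b had the smallest p (-0.56 in F0_5251OV vs F0_5NC, SE 0.158, adjusted p 0.511 by edgeR).

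**Figure D5:**
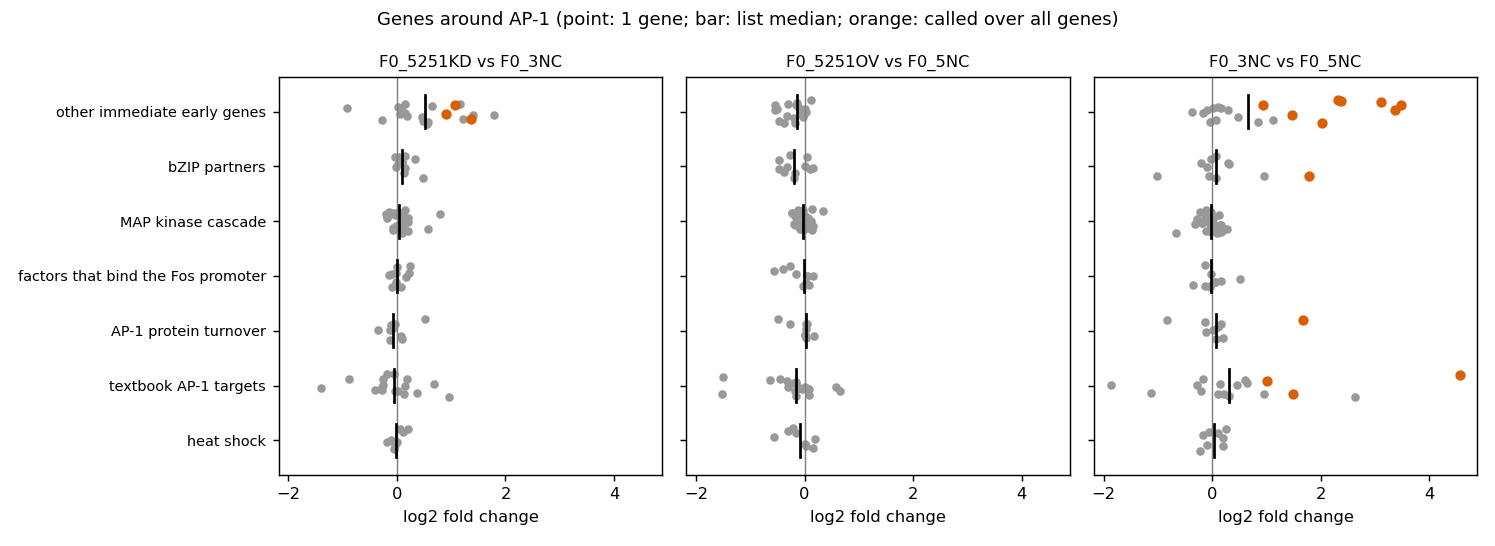
Log2 fold change (x axis) of the tested genes in the 7 lists around AP-1 (y axis) in the 3 comparisons. Each point is 1 gene, the black bar the list median and orange a gene called by edgeR; the immediate early list has medians of 0.52, -0.14 and 0.66, and the MAP kinase list stays near 0.

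Totals of estimated counts were between 15431383 and 16355720 per library. Testis markers were present throughout, with summed spermatid markers at 33450 to 42120 RPKM, and the spermatocyte sums at 776.4 to 842.9 RPKM in all libraries. Of the other cell type lists, spermatogonia, Sertoli, Leydig, endothelial, macrophage and T cell markers had 0 genes called by edgeR in any comparison, with at most 4 genes of a list past an unadjusted p under 0.05 in a direction (4 of 7 Sertoli cell genes, lower in F0_5251OV and in F0_3NC than in F0_5NC), and neutrophil markers were at 0.81 RPKM or less in sum. Whether each library is from its own animal is not in the labels, so p-values and intervals measure the spread between libraries, which may be technical.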

How the data were processed

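Poly(A) RNA of mouse testis was made into cDNA with random hexamers, sequenced, and mapped by the authors to reference genes with SOAPaligner (genome build mm10 per the labels). For the counting program the sources used here give no name. The authors deposited, per gene and library, an estimated count, of which 12.0% were not whole (tolerance 1e-06), and an expression value. The deposited column names give no unit, and the values are called RPKM here because the authors' methods say that read numbers were converted to it. A further 18 columns of per-sample values matched none of these samples and were not used.

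Counts were rounded and fitted with edgeR 4.0.16 in R 4.3.3 (TMM factors 0.97 to 1.078, filterByExpr, quasi-likelihood F test, two-sided, 12 libraries, 4 groups, 8 residual degrees of freedom), with Benjamini-Hochberg adjustment over all genes and a threshold of 0.05. limma 3.58.1, DESeq2 1.42.0 and a pooled-count test served as alternatives. Scripts were tested on simulated data. Library totals were 15431383 to 16355720 counts, and members with few counts are imprecise.

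The members and gene lists were chosen with earlier results of these data known. Named were all members, the genes most like them (8 for Fos and 3 for each other member over 12 libraries, 5 for Fos by deviations from group means), and from each list up to 4 called genes per comparison with the smallest p, or the gene with the smallest p. Coordinates and promoters are from RefSeq (GRCm38.p6), and transcript GC content is from GENCODE. Of the genes that this rule names, 2 are not reported here.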

Additional observations from a re-analysis of the deposited data

How the results depend on the processing

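In F0_5251KD vs F0_3NC the number of AP-1 members called was 1 with edgeR, 2 with DESeq2 (Fos and Junb), 3 with the pooled-count test, which ignores the spread between libraries, and 0 with limma on log2(RPKM + 0.1), with only the groups compared, with the replicate block, and without both libraries of falling GC slope (an alternative chosen after seeing the data, as was the GC correction). It was 0 to 1 when 1 library was left out. In F0_3NC vs F0_5NC it was 3 with edgeR and when any library was left out, 4 with limma on log2(RPKM + 1) and with GC-corrected counts, and 5 with DESeq2, with only the groups compared and with the pooled-count test. In F0_5251OV vs F0_5NC it was 0 throughout, and Atf3 did not pass the filter when only those groups were used. Over all genes DESeq2 called 20, 29 and 131 genes in the knockdown, overexpression and control comparisons, and the pooled-count test 143, 191 and 307, beside 4, 0 and 54 with edgeR. Between the controls, 26 genes were called without both libraries of falling GC slope. The cause of these changes was not tested. The sign changed under some alternatives for Jund in F0_5251KD vs F0_3NC (-0.05 to 0.40) and F0_3NC vs F0_5NC (-0.26 to 0.19), and for Atf3 (-1.10 to 0.44) in F0_5251OV vs F0_5NC, none of which was called by edgeR. With GC-corrected counts the difference of Jund was 0.01, -0.06 and 0.16 and its SE 0.0953 to 0.096. Same-numbered libraries did not deviate together (r -0.133 to 0.037), so the numbers were not taken as pairs. Atf3 rested on 2 to 14 counts per library in the LV5 groups, and the interval of its difference there (-1.20 to 1.25) includes changes of up to those sizes in either direction.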
